A study of Arabidopsis thaliana with 9 samples.

Results

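The genes described here are 6 whose transcripts were lower in 2 Arabidopsis thaliana mutant lines than in their control: AT2G20670, AT3G07350, AT1G19200, AT1G23390, GAT1_2.1 and AT5G20790. They were picked from measured values of these arrays, since each had low signals in line774 and line1135 against WT-control, so those differences are given as a description without a test. The 6 genes were read by 7 probe sets that name exactly 1 gene, of 22746 probe sets tested and 13350 genes with such a probe set. Whole plants of line774, line1135 and WT-control were sampled, with 3 arrays per group. The labels give the same T-DNA knock out on all 9 samples, WT-control included, and name no mutated gene, so the targeted gene of neither line could be checked. All seeds had a cold treatment of at least 7 days before sowing. All plants were at growth stage 1.04 and had grown for 17 days at 21 °C on agar plates with 16 h light and 8 h dark. The medium held mineral salts, ammonium iron citrate and 10 g sucrose, the same for every group. Separate cultures are not stated for the 3 samples of a group, so each p-value measures only how far these samples spread, and part of that spread may be technical.

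Plants adjust many transcripts to their supply of carbon, nitrogen, phosphate and sulphur. When sugar is scarce the kinase SnRK1 switches on genes for the breakdown of amino acids and other reserves, and sugar keeps the same genes low. Phosphate shortage acts largely through PHR1-type transcription factors, and nitrogen supply through nitrate and glutamine signals. Among the 6 genes, AT2G20670 and AT3G07350 encode proteins of the plant DUF506 family, and AT2G20670 is known to rise when carbon is short. AT1G19200 belongs to the DUF581 or FCS-like zinc finger family, whose members bind SnRK1 subunits. AT1G23390 encodes a kelch-repeat F-box protein that marks chalcone synthase, the entry enzyme of flavonoid synthesis, for degradation. GAT1_2.1 is a class I glutamine amidotransferase-like protein known to respond to nitrogen supply, and AT5G20790 is a gene of unknown function known to rise under phosphate shortage.

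Signals are linear MAS5 units per probe set, with every array scaled to the same trimmed mean. The highest signal of 27 Bacillus control probe sets on an array served as its background. It lay between 8.49 and 10.9 in line774, 7.54 and 13.4 in line1135 and 5.36 and 6.63 in WT-control, so it was higher on all mutant arrays than on the controls, and the part of this in the values of dim genes was not tested. Differences are log2 of signal + 16 with standard errors from limma. The number of arrays, 3 per group, limits the precision of every value. Rank correlations were 0.964 to 0.975 between arrays of a group and 0.935 to 0.965 between groups. The ratio of the 3′ to the 5′ actin probe sets, a sign of RNA quality, was 3.42 to 4.19 in line774, 3.46 to 4.04 in line1135 and 3.24 to 4.22 in WT-control, so the groups overlapped. The same ratio for GAPDH was 0.995 to 1.08 in line774, 1.07 to 1.09 in line1135 and 0.981 to 1.00 in WT-control, so that line1135 lay above all controls and line774 overlapped them; its part in the results was not tested. The leaf marker RCA (Rubisco activase) averaged 5900, 6185 and 5684 in line774, line1135 and WT-control. The root marker PYK10 averaged 2842, 3049 and 3296, so leaf and root RNA were both present, as in whole plants. RCA was the 1 leaf marker of 10 with a probe set and did not pass in any comparison. Of 10 root markers 8 were measured: the peroxidase gene AT5G19890 rose in line774 by 2.14 ± 0.28 (limma adjusted p = 6.13e-04), AT3G49960, another peroxidase gene, had -1.53 ± 0.24 in line1135 (limma adjusted p = 0.00177), and the other 7 in each line did not pass. The part of such shifts in the results below was not tested. In whole plants, fewer cells that express a gene and less RNA per cell cannot be told apart.

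All 6 genes had every mutant array below every control array. This separation was also seen in 13.7% of all probe sets in line774 against WT-control and in 14.4% in line1135 against WT-control, and 8.47% of probe sets had all 6 mutant arrays below all 3 controls. By the way they were chosen, all 6 were among the 0.980% of probe sets called lower by at least 2-fold in line774 and the 1.22% called lower in line1135 (2.00% and 2.29% in either direction), and nothing is read from this count. Among single-gene probe sets ordered by decrease in line774, AT2G20670 stood at place 2, AT1G19200 at 3, AT3G07350 at 4, AT5G20790 at 6, AT1G23390 at 10 and GAT1_2.1 at 13. In line1135 the places were 2 for AT1G19200, 4 for AT5G20790, 10 for GAT1_2.1, 11 for AT3G07350, 14 for AT2G20670 and 18 for AT1G23390. The comparisons share the 3 control arrays.

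AT2G20670, the DUF506 gene of carbon shortage, had signals of 75.3, 67.4 and 182 in line774, 285, 148 and 355 in line1135, and 1279, 899 and 856 in WT-control. The line774 mean was 10.7% and the line1135 mean 26.0% of the control mean. On the log2 scale the difference from WT-control was -3.14 ± 0.35 in line774 and -1.94 ± 0.35 in line1135. The spread within a group was wide, with the highest line774 array 2.70 times the lowest. Its residual SD of 0.56 on the log2 scale lay at the 99.7 percentile of the 15857 probe sets above background in WT-control, whose median was 0.15.

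The second DUF506 gene, AT3G07350, had signals of 65.8, 83.1 and 102 in line774, 101, 103 and 151 in line1135, and 669, 483 and 486 in WT-control. Its mean was 15.3% of the control in line774 and 21.7% in line1135. The differences were -2.50 ± 0.18 and -2.07 ± 0.18. Both lines lay far below all controls, and the line774 and line1135 arrays overlapped narrowly.

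AT1G23390, the F-box gene of chalcone synthase turnover, had signals of 238, 207 and 323 in line774, 293, 212 and 364 in line1135, and 1202, 867 and 983 in WT-control. It kept the largest share of its control level among the 6 genes, with 25.1% in line774 and 28.5% in line1135. The differences were -1.94 ± 0.20 and -1.78 ± 0.20, and the arrays of the lines overlapped.

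AT1G19200, the FCS-like zinc finger gene, had signals of 10.7, 4.42 and 2.17 in line774, 8.79, 2.52 and 5.83 in line1135, and 163, 157 and 147 in WT-control. In each line 2 of 3 arrays were at or below their own background, so the transcript was near the limit of measurement there. Set against the lowest control background of 5.36, it was 2 of 3 arrays in line774 and 1 of 3 in line1135. The 3 controls varied little, with a coefficient of variation of 4.99%. The mean of log2 of signal + 16 was 4.42 in line774, 4.43 in line1135 and 7.42 in WT-control, a difference of -2.99 ± 0.17 for line1135. For so dim a gene it depends on the offset: in line774 and line1135 it was -4.74 and -4.67 with an offset of 1, and -1.66 in both lines with an offset of 64.

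GAT1_2.1, the glutamine amidotransferase-like gene, had signals of 39.3, 45.2 and 25.3 in line774, 25, 31.6 and 20.3 in line1135, and 187, 173 and 145 in WT-control. Its mean was 21.8% of the control in line774 and 15.2% in line1135. The differences were -1.82 ± 0.17 and -2.15 ± 0.17, and -1.21 and -1.37 with an offset of 64. GAT1_2.1 and AT1G19200 were the members with a lower mean signal in line1135 than in line774, by a margin in AT1G19200 (5.71 against 5.77) far inside its spread. A second probe set of GAT1_2.1 read 8.44, 1.14 and 3.77 in line774, 0.475, 1.21 and 1.39 in line1135, and 2.71, 0.752 and 6.20 in WT-control. It was at or below background on all arrays of both lines and on 2 of 3 controls, so it gave no second measurement of the gene.

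AT5G20790, the phosphate-responsive gene, had signals of 8.98, 23.5 and 18.1 in line774, 17.9, 25.6 and 12.5 in line1135, and 176, 176 and 139 in WT-control. The means were 10.3% and 11.4% of the control. The differences were -2.47 ± 0.20 in line774 and -2.38 ± 0.20 in line1135, and ran to -3.29 and -3.11 with an offset of 1 and to -1.49 and -1.46 with an offset of 64. The signal of line1135 replicate 3 was below its background of 13.4, and that of line774 replicate 1 was just above its background of 8.49.

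**Figure D1:**
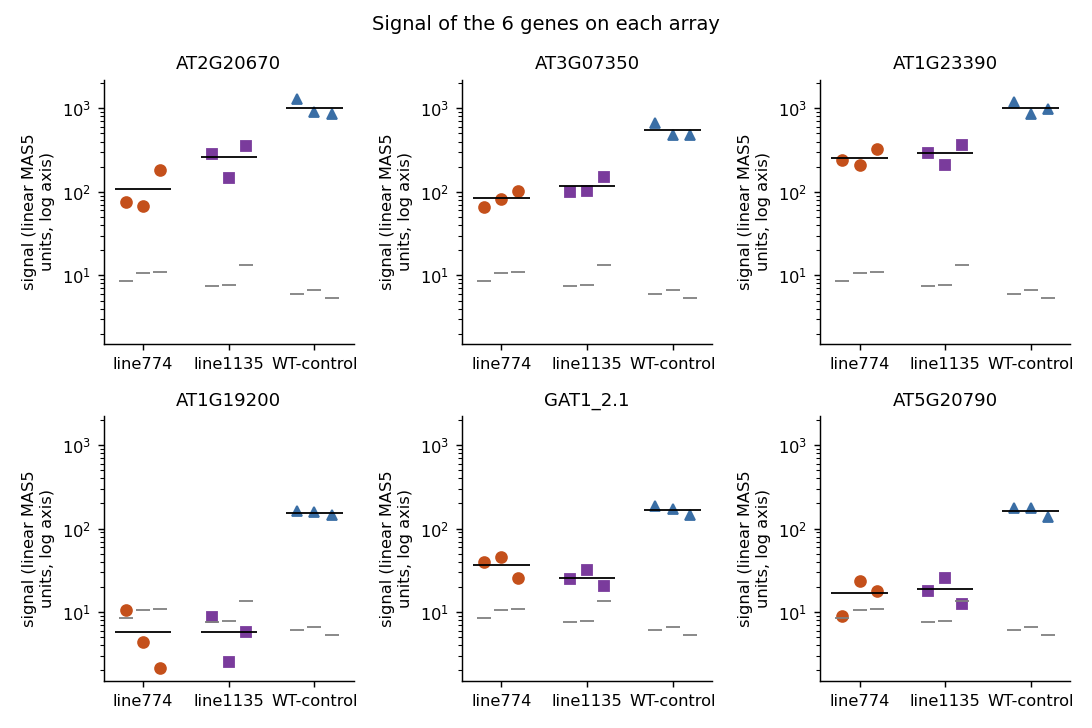
Signal of each gene on each array, in linear MAS5 units on a log axis, for line774, line1135 and WT-control; points are single arrays, black bars are group means and grey dashes are the background of each array. The controls lie above all mutant arrays for each gene, and AT1G19200 reaches background on 2 of 3 arrays of each line.

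Whether the lines differ from each other was not used to list the genes as low in both, although several were noticed for their size in 1 line. The 6 genes were compared in line1135 against line774, with p-values adjusted over all 22746 probe sets. As signals of the same line arrays served in the choice, these p-values and intervals are a description and no independent test. In limma 0 of 6 passed, at 2-fold or at any fold, against 0.602% (0.167% lower and 0.435% higher) and 2.00% of all probe sets. The DUF506 genes, 2 of 6, had an unadjusted p under 0.05. The share of all probe sets under that unadjusted p was not counted, so nothing is read from this number. AT2G20670 was higher in line1135 than in line774 by 1.20 ± 0.35 (95% interval 0.44 to 1.96, limma adjusted p = 0.121), and 1 line774 array lay above the lowest line1135 array. Without line774 replicate 3, the array with 182 units, the difference was 1.60 with limma adjusted p = 0.0294, and with dim probe sets left out it was 1.20 with adjusted p = 0.0420. Over all alternatives its adjusted p ran between 0.0294 and 0.330. AT3G07350 differed by 0.43 ± 0.18 (interval 0.04 to 0.82, limma adjusted p = 0.293).

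GAT1_2.1 had a difference of -0.33 ± 0.17 between line1135 and line774 (interval -0.70 to 0.04, limma adjusted p = 0.400). For AT1G23390 it was 0.16 ± 0.20 (interval -0.27 to 0.60), for AT5G20790 0.09 ± 0.20 (interval -0.35 to 0.52) and for AT1G19200 0.01 ± 0.17 (interval -0.37 to 0.38). These intervals, which are not adjusted for the number of genes, reach from -0.37 to 0.60 over these 3 genes. For AT1G19200, AT1G23390 and AT5G20790 the sign turned when single arrays were left out, so no order of the lines can be read from them.

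**Figure D2:**
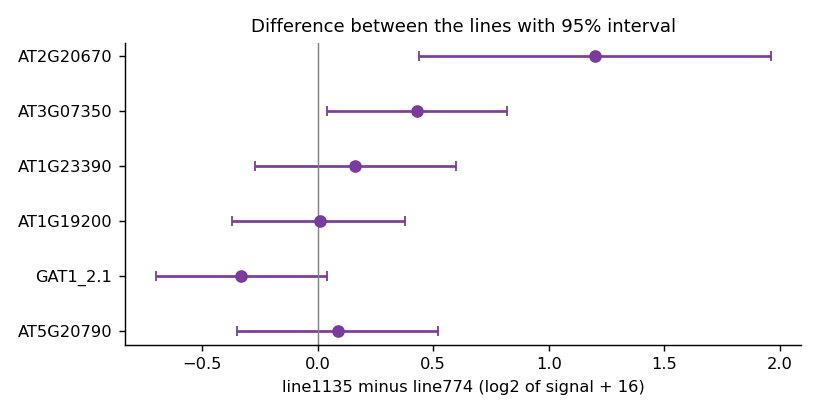
Difference of line1135 minus line774 in log2 of signal + 16 for each gene, with points for the estimate and bars for the unadjusted 95% interval. AT2G20670 has the largest estimate, 1.20, and the widest interval, and AT1G19200 sits at 0.01.

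A second question was whether the 6 genes varied together from array to array. Each array's deviation from its group mean was compared between genes, so that the difference of the lines from the control, which fixed the choice of genes, was taken out. Over the 15 pairs of genes Pearson's r ran from -0.71 to 0.95 with a median of -0.04, and 7 of 15 pairs were above 0. The median r of the 6 genes with all other probe sets above background in WT-control was -0.01. Each pair was tested by an exact two-sided permutation within groups, which allows no p below 0.00463. A single pair therefore could not pass after adjustment over 15 pairs, and the adjusted values say nothing for or against a relation. Unadjusted, 1 of 15 pairs had a p under 0.05. The share of all pairs of probe sets under that p was not counted, so nothing is read from this number.

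The pair with the lowest p was AT2G20670 and AT1G23390, a DUF506 gene and the F-box gene. Pearson's r was 0.95 (exact permutation p = 0.00926, adjusted p = 0.139) and Spearman's rho 0.93 (exact permutation p = 0.0139, adjusted p = 0.208) over 9 arrays. Without the 2 arrays farthest from the median of AT2G20670 r was 0.92. Of other probe sets, 0.328% had an r of at least 0.9 with AT2G20670. That share holds for a single probe set, whereas this pair had the highest r of 15, so the share does not measure how rare the pair is. The highest deviations of AT2G20670, 0.79 in line774 replicate 3, 0.49 in line1135 replicate 3 and 0.36 in WT-control replicate 1, fell on the arrays where AT1G23390 was also highest in its group, at 0.34, 0.35 and 0.25. AT3G07350 was highest in its group on the same 3 arrays, at 0.26, 0.33 and 0.30.

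Pearson's r of AT3G07350 was 0.75 with AT2G20670 (exact permutation p = 0.111, adjusted p = 0.347; Spearman's rho 0.60, exact p = 0.185, adjusted p = 0.476) and 0.77 with AT1G23390 (exact permutation p = 0.0694, adjusted p = 0.347; rho 0.60, exact p = 0.204, adjusted p = 0.476). Without the 2 farthest arrays these were 0.51 and 0.57. GAT1_2.1 ran the other way, with r of -0.71 to AT2G20670 (exact permutation p = 0.116, adjusted p = 0.347; rho -0.70, exact p = 0.111, adjusted p = 0.476) and -0.69 to AT1G23390 (exact permutation p = 0.0926, adjusted p = 0.347; rho -0.70, exact p = 0.0833, adjusted p = 0.476). Without the 2 farthest arrays these fell in size to -0.31 and -0.34. GAT1_2.1 and AT5G20790 had an r of 0.48 (exact permutation p = 0.352, adjusted p = 0.656; rho 0.60, exact p = 0.218, adjusted p = 0.476), and 0.69 without the 2 farthest arrays. AT1G19200 varied around background in the lines, and its r with the other genes lay between -0.60 and 0.22. Without the 2 farthest arrays these ran from -0.68 to 0.62, and the sign turned with AT2G20670 (0.50 in place of -0.04) and with GAT1_2.1 (-0.31 in place of 0.22), so they rest on single arrays.

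**Figure D3:**
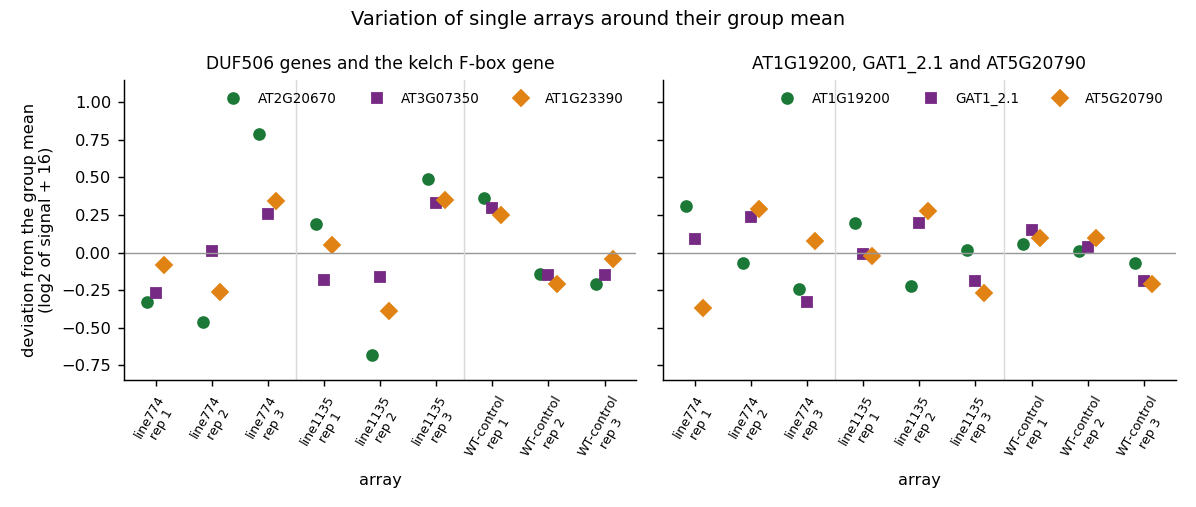
Deviation of each array from its group mean, in log2 of signal + 16, by array, for the DUF506 and F-box genes on the left and the other 3 genes on the right. On the left the 3 genes share their highest array in each group, line774 replicate 3, line1135 replicate 3 and WT-control replicate 1. These 3 genes had the highest r with each other, so their shared arrays show those r again and add no support. On the right GAT1_2.1 is lowest on replicate 3 of every group, and AT5G20790 on replicate 3 of line1135 and WT-control.

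Other genes of the same nutrient pathways were taken from lists that were made with earlier results of these arrays known. A list gene passed when its limma adjusted p over all probe sets was under 0.05, at any fold. Many listed genes have no single-gene probe set in the annotation used here. For phosphate starvation 0 of 26 listed genes besides AT5G20790 were measured, and for nitrogen 1 of 26 besides GAT1_2.1. That 1 was the nitrate transporter NRT2.5, with means of 8.54 in line774, 7.60 in line1135 and 4.94 in WT-control, and 2 of 3 arrays of each group at or below background. It did not pass in any comparison (limma adjusted p = 0.695 in line774 and 0.753 in line1135). The name of a nutrient-status group could therefore be set against other genes for carbon and sulphur, and not for phosphate or nitrogen.

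Genes repressed by sugar were low in both lines together with AT2G20670. Of 30 other listed genes 9 were measured, all above background on every array. In line774 7 of 9 fell, against 6.01% of all probe sets, and in line1135 7 of 9 fell, against 6.86% of all probe sets. None of the 9 rose. The shares over all probe sets include many at background, and the share among probe sets above background was not counted. At 2-fold the counts were 4 and 3, against 0.980% and 1.22% of all probe sets. The median difference was -0.88 in line774 and -0.84 in line1135, where the median over all probe sets was 0.02 in both. Under the alternatives tried, 7 to 8 of the 9 fell in line774 and 7 in line1135. As the list was made with earlier results of these arrays known, these counts are a description and no independent test. The same holds for the p-values of single genes of this and the other lists.

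AT3G15450, a gene known to be switched on by darkness and SnRK1, had signals of 684, 803 and 1213 in line774, 1073, 1306 and 1232 in line1135, and 3016, 2949 and 2404 in WT-control. It fell by 1.65 with a standard error of 0.18 in line774 (limma adjusted p = 1.99e-04), and its difference in line1135 was -1.20 ± 0.18 (limma adjusted p = 0.00129). All mutant arrays lay below all controls.

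Enzymes of amino acid breakdown were among the genes that fell. MCCA, a subunit of methylcrotonyl-CoA carboxylase in leucine breakdown, had signals of 106, 106 and 101 in line774, 98.4, 116 and 118 in line1135, and 266, 208 and 275 in WT-control. Its differences were -1.13 ± 0.11 and -1.06 ± 0.11 (limma adjusted p = 9.45e-05 and 1.16e-04). IVD, isovaleryl-CoA dehydrogenase of the same pathway, differed by -1.09 ± 0.12 in line774 and -0.84 ± 0.12 in line1135. AT4G33150, the lysine-degrading enzyme LKR/SDH, had signals of 189, 314 and 268 in line774, 214, 182 and 156 in line1135, and 546, 464 and 587 in WT-control, with differences of -1.03 ± 0.17 and -1.46 ± 0.17. MCCB, the other subunit of the carboxylase, had values of -0.29 and -0.20 that did not pass, nor did those of ETFQO, -0.12 and -0.23. In line774 MCCB had a limma adjusted p of 0.0620, which was 0.0412 with the replicate block and 0.0257 without WT-control replicate 3.

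The list also holds regulators. AKINBETA1, a regulatory subunit of SnRK1, differed by -0.68 ± 0.11 in line774 and -0.60 ± 0.11 in line1135, the ubiquitin ligase gene ATL8 by -0.88 ± 0.18 and -0.86 ± 0.18, and the transcription factor BZIP53 by -0.37 ± 0.07 in both. Between the lines 0 of 9 list genes passed in limma, where 2.00% of all probe sets did, and 2 had an unadjusted p under 0.05. As the share of all probe sets under that unadjusted p was not counted, nothing is read from the 2. Without line774 replicate 3, AT3G15450 was higher in line1135 by 0.68 (limma adjusted p = 0.0294). From array to array within groups, the median r of AT2G20670 with the 9 genes was 0.01, against -0.03 over all probe sets. That of AT3G07350 was 0.18, with 7 of 9 above 0, against -0.02 over all probe sets. Over 9 arrays of shared scaling these r ran from -0.60, with BZIP53, to 0.56, with AT3G15450, for AT2G20670, and from -0.71 to 0.64 with the same genes for AT3G07350. The medians of the other members ran from -0.20 for AT1G19200 to 0.17 for AT1G23390.

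**Figure D4:**
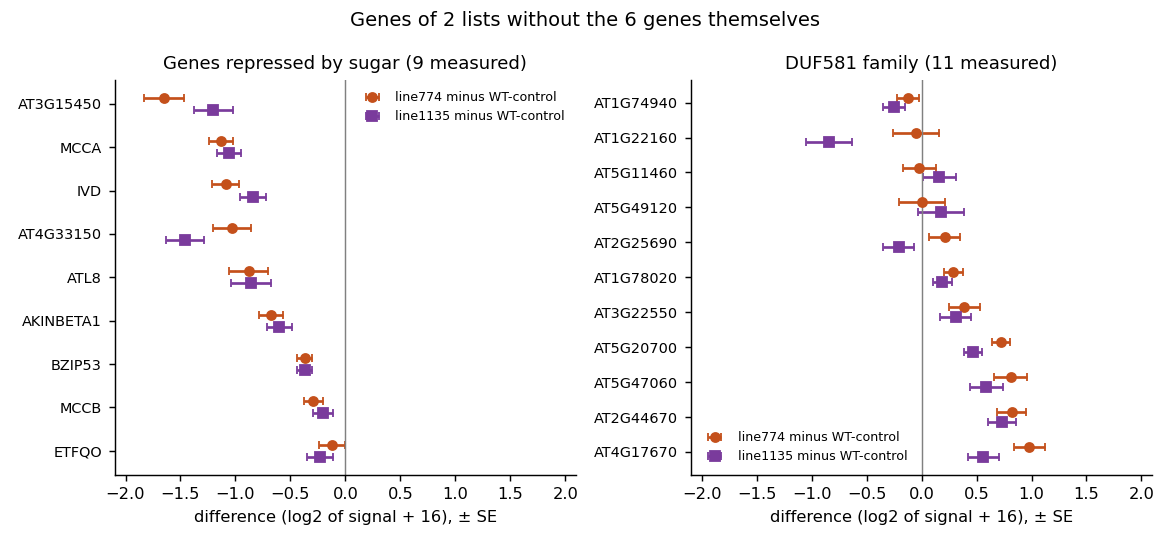
Difference of line774 and of line1135 from WT-control in log2 of signal + 16, with bars for the standard error, for the 9 measured genes repressed by sugar on the left and the 11 measured DUF581 genes on the right. All 9 sugar-repressed genes lie below 0 in both lines, while 4 DUF581 genes passed above 0 in each line.

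Relatives of AT1G19200 and of the DUF506 genes went in both directions or did not pass. Of 11 other DUF581 genes measured, 4 rose and 0 fell in line774, against 6.60% of all probe sets that rose, and 7 did not pass. Here too the share among probe sets above background was not counted. AT5G20700 had signals of 1371, 1264 and 1313 in line774, 1066, 1226 and 1028 in line1135, and 785, 835 and 761 in WT-control. It differed by 0.72 ± 0.08 in line774 (limma adjusted p = 2.27e-04) and 0.47 ± 0.08 in line1135 (limma adjusted p = 0.00278). AT4G17670 differed by 0.98 ± 0.14 in line774 and 0.56 ± 0.14 in line1135, AT2G44670 by 0.82 ± 0.13 and 0.73 ± 0.13, and AT5G47060 by 0.81 ± 0.15 and 0.59 ± 0.15.

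In line1135 the same test gave 4 higher, against 6.74% of all probe sets, and 1 lower. The 4 were AT5G20700, AT4G17670, AT2G44670 and AT5G47060, and the lower gene was AT1G22160, at -0.84 ± 0.21 (limma adjusted p = 0.0254). AT1G22160 had -0.05 ± 0.21 in line774, and its difference between the lines, -0.79 ± 0.21, did not pass (limma adjusted p = 0.101, and 0.0389 with dim probe sets left out). The count of 4 in line1135 was 2 without WT-control replicate 1, without WT-control replicate 3 and without line1135 replicate 2, where AT4G17670 and AT5G47060 did not pass. AT4G17670 also missed the threshold without line1135 replicate 1 and AT5G47060 without line1135 replicate 3. The call of AT1G22160 was lost without WT-control replicate 1 or 2 or line1135 replicate 1 or 2, with a limma adjusted p of up to 0.105.

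Of 4 other DUF506 genes measured, AT2G38820 fell in both lines. It had signals of 69.9, 73.5 and 87.7 in line774, 72.2, 63.0 and 77.3 in line1135, and 188, 151 and 192 in WT-control, with differences of -1.05 ± 0.12 (limma adjusted p = 2.59e-04) and -1.15 ± 0.12 (limma adjusted p = 1.12e-04). AT1G12030 rose in line774 by 0.98 ± 0.19 (limma adjusted p = 0.00783), where 2 of 3 controls were at or below background, and had 0.30 ± 0.19 in line1135. AT2G39650 and AT3G22970 did not pass in either line. In this and the sugar and DUF581 lists, AT1G12030, AT2G39650, AT3G22970, AT5G47060, AT2G44670, AT1G22160, AKINBETA1, ATL8, BZIP53, MCCB and ETFQO were named after their values were seen.

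Listed sulphur and flavonoid genes included some that differed between the lines, where 2.00% of all probe sets passed. BGLU28, a beta-glucosidase known to rise when sulphur is short, had signals of 73.8, 28.1 and 46.3 in line774, 12.2, 5.30 and 11.8 in line1135 (2 of 3 arrays at or below background), and 16.7, 9.21 and 18.4 in WT-control. It rose in line774 by 1.04 ± 0.24 (limma adjusted p = 0.0175), which was lost without WT-control replicate 2 (0.90, adjusted p = 0.0700) or line774 replicate 1 (0.78, adjusted p = 0.0523). It was lower in line1135 than in line774, with a difference of -1.29 ± 0.24 (limma adjusted p = 0.0224). AT1G04770, a sulphur shortage gene named after its values were seen, had a difference between the lines of -0.86 ± 0.16 (limma adjusted p = 0.0203), which was lost without line774 replicate 2 or 3 or line1135 replicate 1 or 3 (adjusted p of up to 0.0892). Against WT-control it did not pass, with -0.47 ± 0.16 in line1135 (limma adjusted p = 0.0778, and 0.0325 with the replicate block). These 2 were the measured genes of 14 on the sulphur list.

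Of the flavonoid genes, downstream of the chalcone synthase that AT1G23390 acts on, 2 of 12 were measured. DFR, dihydroflavonol reductase, had signals of 36.3, 45.1 and 49.6 in line774, 18.4, 24.7 and 18.5 in line1135, and 20.2, 22.7 and 28.9 in WT-control. It rose in line774 by 0.58 ± 0.15 (limma adjusted p = 0.0269) and had -0.13 ± 0.15 in line1135. The rise was lost without WT-control replicate 1 or 2 or line774 replicate 2 or 3, with a limma adjusted p of up to 0.103. The flavonol glycosyltransferase gene UGT78D2 had -0.03 in line774 and fell in line1135, with -0.40 (limma adjusted p = 0.0296). That was lost without WT-control replicate 2 or 3 or line1135 replicate 1 or 3, where the adjusted p reached 0.106, and with only the compared groups in the fit (0.0530). Of 4 other kelch F-box genes of phenylpropanoid turnover 0 were measured.

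The genes whose pattern over the 9 arrays was most like that of the 6 were AT3G26580, AT2G34810, AT4G04410, AT1G54410, AT4G05070 and AT1G08310. Their mean Pearson r with the 6 genes was 0.95 to 0.96, and the median over all candidates was 0.00. This r mostly reflects the difference between the lines and the control. AT2G34810, a berberine bridge enzyme gene, averaged 29.8 in line774, 32.2 in line1135 and 135 in WT-control. AT1G54410, a small dehydrin gene, averaged 1280, 1365 and 1892 in the same groups, a far smaller difference with as close a likeness. AT1G08310 averaged 16.7, 21.4 and 168. When group means were taken out, the closest mean r was 0.40, for AT1G03260, with a median over candidates of -0.01. AT5G24890, AT2G41620, EXPA8, AT2G28200 and AT3G13690 came next, at 0.38 to 0.39, and EXPA8, an expansin gene of cell wall loosening, had single r values from -0.06 to 0.83 with the 6 genes.

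In the RefSeq gene order of TAIR10.1 the 6 genes lie apart from each other, 3 on chromosome 1 and the others on chromosomes 2, 3 and 5, and all are protein coding. Of the 24 loci that flank them, 2 on each side, 7 had a single-gene probe set. In limma 0 of 7 passed in either line against WT-control, against 12.6% and 13.6% of all probe sets. An unadjusted p under 0.05 was seen for 1 of 7 in line774 and 0 of 7 in line1135. The share of all probe sets under that unadjusted p was not counted, so nothing is read from these numbers. Their differences lay between -0.22 and 0.38 in line774 and between -0.25 and 0.32 in line1135. Of the loci flanking AT5G20790, 3 are pseudogenes in this table. AT5G20770 had means of 1.63 in line774, 5.24 in line1135 and 4.53 in WT-control, and AT5G20800 had 0.866, 1.56 and 1.91, all near or below background. So were AT1G19190 (2.85, 1.30 and 2.20), AT1G19210 (4.65, 10.6 and 5.02) and IAA34 (8.91, 3.29 and 6.64). A fall of these loci could not be seen. AT2G20690 (101, 120 and 102) and AT1G23410 (59.8, 50.4 and 42.3) were well above background. No locus flanking AT3G07350 was measured.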

How the data were processed

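Each of the 9 samples had 1 ATH1 array of whole-plant RNA. As the submitters' processing notes name MAS5 and GCOS, the deposited intensity of a probe set is a linear signal of those programs; software versions were not found in the labels. All arrays had a 2% trimmed mean of 100. Groups and replicate numbers came from the titles.

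After 64 control probe sets were left out, 22746 were tested without a filter, as log2(signal + 16), with 1 mean per group over 9 arrays in limma 3.58.1 (lmFit, eBayes with trend; R 4.3.3). Benjamini-Hochberg adjustment ran over every tested probe set. Calls that need a fold used 2-fold. Probe sets were named by the platform annotation (1 gene for 13513, several for 503, none for 8730), the brightest standing for a gene. Named genes were the members, up to 4 called genes per list or the 2 with the lowest p, the 6 closest genes by r, and flanking loci. The members and lists were chosen with earlier results of these data known. Correlations used exact permutation within groups. The fits and the permutation test were checked on simulated data. Promoter motifs were not analysed here. Figures were drawn with matplotlib 3.10.9.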

Additional observations from a re-analysis of the deposited data

Results flagged for a closer look

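BGLU28, DFR and AT5G19890, list genes outside the 6, had effects that differed between the lines by the direct limma test of line1135 against line774. The difference of BGLU28 was -1.29 ± 0.24 (limma adjusted p = 0.0224). This did not pass when either line774 replicate 1 or 3, or any 1 array of line1135, was left out, nor with only the compared groups in the fit, and the adjusted p reached 0.0708. DFR differed by -0.71 ± 0.15 (limma adjusted p = 0.0377). The adjusted p was above 0.05 with an offset of 1, with only the compared groups, and without WT-control replicate 1 or 2, line774 replicate 2 or 3, or line1135 replicate 1 or 3, where it reached 0.132. AT5G19890, a peroxidase gene on the root list, averaged 25.6 in line1135 and 101 in line774, with 10.6 in WT-control. Its difference of -1.50 ± 0.28 (limma adjusted p = 0.0203) missed the threshold with an offset of 1 and without line774 replicate 1, line774 replicate 2, line1135 replicate 1 or line1135 replicate 3, where the adjusted p reached 0.0918.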

How the results depend on the processing

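The differences of the 6 genes from WT-control kept their sign under all 17 alternatives tried for each. The genes were chosen as low in both lines, and every mutant array lay below every control. The sign was thus fixed beforehand, and nothing is read from it. Calls over all probe sets numbered 456 in line774, 520 in line1135 and 137 between the lines. With an offset of 1 they were 845 and 991 against WT-control, with an offset of 64 they were 209, 224 and 61, and with no minimum fold 2868, 3092 and 454. Leaving out 1 array gave 391 to 513, 460 to 560 and 119 to 149. The offset moves dim genes most. The median r of -0.04 was 0.08 with an offset of 64, -0.14 to 0.04 without single arrays, and 0.19 over the 4 genes above background on all arrays, a choice made after seeing the data; the cause was not tested. The DUF581 count of 4 in line1135, also varied after seeing the data, ran between 2 and 4 without single arrays.

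Differences between the lines near 0 turned sign. AT1G19200 had -0.00 with an offset of 64. Without single arrays AT1G19200 ran from -0.12 to 0.16, AT1G23390 from -0.01 to 0.36 and AT5G20790 from -0.10 to 0.23. RCA had -0.08 between the lines with quantile normalization and -0.00 to 0.15 in line774 against WT-control without single arrays. For that comparison UGT78D2 ran from -0.10 to 0.04 and NRT2.5 from -0.00 to 0.44, and between the lines NRT2.5 ran from -0.29 to 0.18. NRT2.5 had no value with dim probe sets left out.

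The replicate number as a block gave 461, 524 and 143 calls, and adjusted p = 0.0603 for AT2G20670 between the lines. Among list genes it brought 7 comparisons past an adjusted p of 0.05 and lost none. They include AT3G49960 between the lines (0.0345), MCCB in line774 (0.0412) and AT1G04770 in line1135 against WT-control (0.0325); the other 4 were of AT4G30170 (in line774 and between the lines), EXPA7 and AT1G78020, all named after their values were seen. Deviations of same-numbered arrays correlated at 0.05 to 0.13, above 0.1 in 2 of 9 pairs, and those of arrays with other numbers at -0.14 to 0.08. Of the arrays, 8 of 9 correlated best with their own number. The main fits and the r from array to array did not take the numbers to pair the samples. Whether the numbers mark a shared batch was not tested, and its part in these r cannot be told apart.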
